A study of Mus musculus with 2 samples.

Results

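The mitochondrial carrier family is the group of nuclear genes named Slc25a followed by a number. Members were taken as the protein-coding genes whose symbol begins with Slc25a in the mouse GENCODE annotation, except for a gene that is not analysed here, which gave 46 of the 21461 nuclear protein-coding genes in the deposited tables. The rule reads symbols and biotypes and no measured value. The members lie on 19 chromosomes, and their longest coding sequences run from 795 to 2031 bases with a median of 954; 32 of the 46 fall between 900 and 1100 bases.

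Mitochondrial carriers sit mostly in the inner mitochondrial membrane and exchange small molecules such as nucleotides, phosphate, di- and tricarboxylates, amino acids and cofactors between the cytosol and the matrix. They are made in the cytosol and are brought to the inner membrane by a dedicated import route. In red cell precursors the family is best known for mitoferrin, which brings iron to the matrix, where the last step of haem synthesis takes place.

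PolyA-selected RNA was sequenced as paired ends from G1E-ER4 cells in 2 libraries, numbered by the labels as biological replicates 1 and 2. G1E-ER4 is an immortalised male mouse erythroid line of postnatal stage, derived from G1E cells, which lack GATA1, and carrying GATA1 fused to the hormone-binding part of the estrogen receptor. Both libraries are from cells held in 10 nM 17beta-estradiol for 14 h, so there is 1 group, every cell carries the fusion, and no control group was analysed here. The labels tie both to a single biosample record, so their spread, and every p below, may reflect technical variation in part.

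The libraries held 38395479 and 60097379 expected counts on named genes (estimated fragment counts, which need not be whole), so replicate 2 was 1.57 times as deep. All 10 erythroid markers reached 1 TPM in both libraries, with summed TPM (a level per transcript length, scaled so that each library adds up to 1000000) of 33250 in replicate 1 and 84139 in replicate 2. Most of that sum was globin, with Hbb-bs at 13158 and 49652 TPM and Hba-a1 at 7118 and 21029 (a level made uncertain by reads shared with its close copy Hba-a2), while the median of the 10 markers was 731 TPM in replicate 1 and 500 in replicate 2. Of the granulocyte and macrophage markers 1 of 6 passed that level (Cd68), of the megakaryocyte markers 3 of 5 (Gp1ba, Gp9 and Itga2b), and of the lymphoid and mast cell markers 0 of 5 and 0 of 4; Elane, Ctsg, Lyz2, Pax5, Ppbp, Cpa3 and Mcpt4 had 0 counts in both. In such bulk RNA, fewer cells of a type and less RNA per cell cannot be told apart. Gata1, at 1132 and 2656 TPM, is among the 10 erythroid markers. The cells carry GATA1 as the introduced fusion, so this level may come from the fusion and is no independent marker of cell type.

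Of the 46 members, 31 were expressed, meaning at 1 TPM or more in both libraries, which is 67.4% against 37.6% of all nuclear protein-coding genes. Of the 324 other solute carrier genes, 28.7% were expressed. High levels, at 50 TPM or more in both libraries, were reached by 6 members (13.0%, with 9.05% over all genes). These were the phosphate carrier Slc25a3, the citrate carrier Slc25a1, the oxoglutarate carrier Slc25a11, the glutathione carrier Slc25a39, the iron importer Slc25a37 and the dicarboxylate carrier Slc25a10. Under 0.1 TPM in both libraries, here called not detected, were 9 members (19.6%, with 52.4% over all genes). The other 6 members lay in between or passed 1 TPM in replicate 2 alone. The median member measured 4.37 TPM and 4.06 TPM in replicates 1 and 2, while the median over all nuclear protein-coding genes was 0.0300 and 0.0200. Among expressed genes the order was the other way round, with medians of 11.4 and 13.7 TPM for members against 19.3 and 19.6 over all expressed genes.

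Together the members summed to 1892 TPM in replicate 1 and 1543 in replicate 2, or 0.189% and 0.154% of all TPM. The 6 high members held 82.4% and 77.8% of that sum. Counting transcripts annotated as protein-coding alone, the mean sum over both libraries fell from 1718 to 1144 TPM, a point taken up below.

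**Figure D1:**
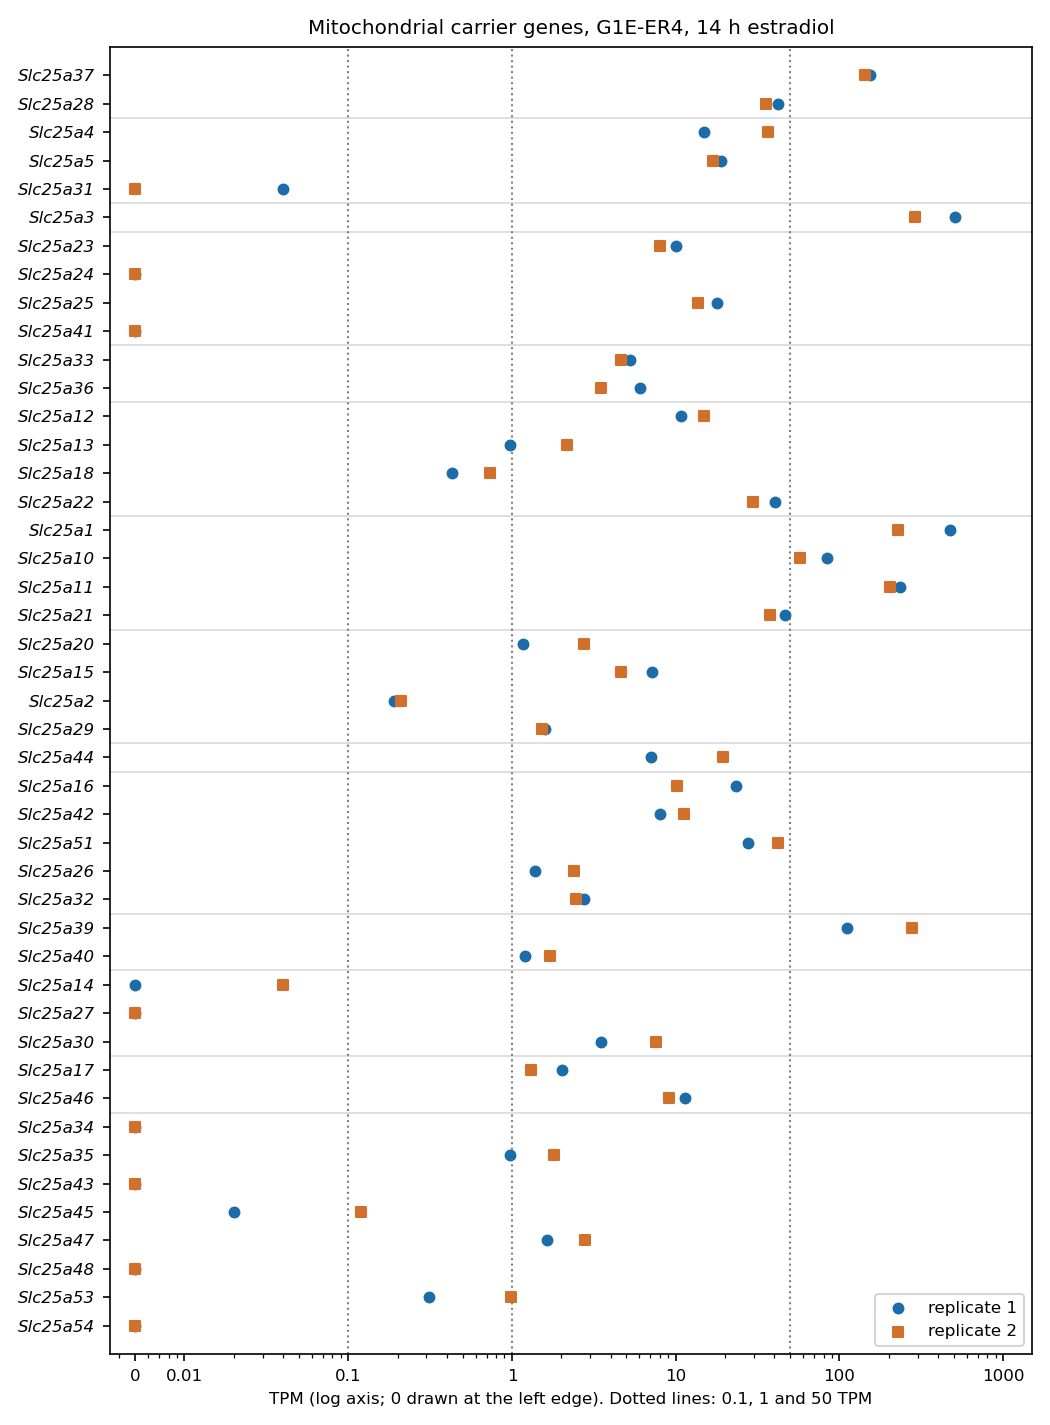
TPM of 45 members in replicate 1 (circles) and replicate 2 (squares) on a log axis, with 0 drawn at the left edge; grey lines part the roles, and dotted lines stand at 0.1, 1 and 50 TPM. The 6 high members lie right of the last dotted line in both libraries, and 7 members sit at 0 in both.

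Both mitoferrins, the importers of iron, were expressed. Slc25a37, the form that red cell precursors depend on, measured 154 TPM in replicate 1 and 144 in replicate 2. Its relative Slc25a28, which is found in most tissues, measured 42.4 and 35.6 TPM. Each library placed Slc25a37 above Slc25a28, and the ranges did not overlap. The deposited 95% interval of Slc25a37 was wide, at 98.9 to 198 TPM in replicate 1 and 114 to 178 in replicate 2, and its expected counts of 7139.59 and 15002.94 were not whole. Abcb10 and Fech, whose proteins are known to form a complex with this importer, stood at 435 and 317 TPM and at 296 and 226 TPM.

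Most of the Slc25a37 signal was placed on a transcript that is not annotated as protein-coding. Slc25a37 lies on chromosome 14 (69241848 to 69285112, minus strand, mm10). Slc25a37-204, annotated as a target of nonsense-mediated decay, took 57.7% of the gene's TPM in replicate 1 and 63.0% in replicate 2. Slc25a37-202, a protein-coding model of only 342 bases, took 36.7% and 23.4%. The full-length coding transcript Slc25a37-201 took 3.91% and 12.3%. Slc25a37-204 holds the whole coding part of Slc25a37-201 and 511 further bases. The point where it runs on is shown because it is what tells the 2 models apart; the capitals are bases kept in Slc25a37-204 and absent from the exons of Slc25a37-201 (chr14:69249334-69249453, minus strand).
Slc25a37-204: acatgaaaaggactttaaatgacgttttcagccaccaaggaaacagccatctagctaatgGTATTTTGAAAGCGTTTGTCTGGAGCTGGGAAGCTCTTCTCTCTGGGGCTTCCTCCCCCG

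Of the carriers that swap matrix ATP for cytosolic ADP, Slc25a5 and Slc25a4 were expressed. Slc25a5, the form typical of dividing cells, measured 18.9 and 17.0 TPM, with 0.966 times as many scaled counts in replicate 2 (95% counting interval 0.873 to 1.07; exact two-sided binomial test, adjusted p = 0.558 over all genes tested). Slc25a4, the form typical of heart and muscle, measured 14.9 and 36.4 TPM. Slc25a31, known from germ cells, had 2 counts in replicate 1 and 0 in replicate 2. The order of Slc25a5 and Slc25a4 thus differed between the libraries, with Slc25a5 higher in replicate 1 and Slc25a4 higher in replicate 2. Their coding sequences were 77.6% identical, and the longest run they share was 20 bases.

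The Slc25a4 reads, too, were placed mainly on a transcript that is not annotated as protein-coding. Slc25a4-202, annotated as a retained intron, took 82.2% of the gene's TPM in replicate 1 and 94.3% in replicate 2. It covers 82.7% of the coding part of Slc25a4-201, lacks the end of its last coding exon and holds 428 bases outside its exons. Slc25a4-201 itself measured 2.65 and 2.08 TPM. Counting protein-coding transcripts alone, Slc25a5 exceeded Slc25a4 by 2.85 on the log2 scale of TPM + 0.1, where all transcripts gave -0.37 ± 1.02 (SD, n = 2). The boundary is shown because the gene's rank in the family turns on it; capitals mark bases that Slc25a4-202 keeps past the coding exon (chr8:46208338-46208457, minus strand).
Slc25a4-202: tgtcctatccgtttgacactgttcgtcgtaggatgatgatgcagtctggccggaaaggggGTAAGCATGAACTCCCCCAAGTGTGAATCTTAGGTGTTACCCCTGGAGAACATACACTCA

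The phosphate carrier Slc25a3, which also carries copper, had the highest TPM of the family in both libraries, at 505 in replicate 1 and 291 in replicate 2 (398 ± 151, SD, n = 2). It held 26.7% and 18.8% of the family's TPM. Its deposited value in replicate 1 lies above its own deposited interval of 486 to 500 TPM; among expressed members this was so for Slc25a3 alone, and in replicate 1 only. The gene lies on chromosome 10 (91116574 to 91124059, minus strand, mm10).

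Exon 3 of Slc25a3 comes in a pair of alternative forms, and the libraries split differently between them. Slc25a3-201 measured 206 TPM in replicate 1 and 210 in replicate 2. Slc25a3-206 measured 249 and 52.8 TPM. Among its protein-coding transcripts, those with the exon of Slc25a3-206 thus held 53.3% of TPM in replicate 1 and 19.7% in replicate 2. Slc25a3-201 thus measured nearly alike in both libraries, and Slc25a3-206 did not. The exons are 122 and 125 bases long, 63.5% identical over 126 aligned columns, and share no run longer than 7 bases. They are printed because they tell the main coding transcripts of the gene apart (chr10:91121922-91122043 and chr10:91122207-91122331, minus strand).
Slc25a3-201 exon: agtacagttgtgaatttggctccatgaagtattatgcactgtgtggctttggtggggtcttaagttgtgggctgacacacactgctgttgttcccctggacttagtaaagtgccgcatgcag
Slc25a3-206 exon: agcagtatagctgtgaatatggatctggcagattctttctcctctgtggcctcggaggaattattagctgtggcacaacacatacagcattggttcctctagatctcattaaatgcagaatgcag

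Of the 4 ATP-Mg and phosphate carriers, which adjust the matrix adenine nucleotide pool, 2 were expressed and 2 had 0 counts. Slc25a25 measured 17.9 and 13.7 TPM, and Slc25a23 measured 10.1 and 8.05. Slc25a24 and Slc25a41 had 0 counts in both libraries. A count of 0 allows up to 3 counts, which is 0.0781 CPM (counts scaled to a total of 1000000) for the shallower library and 0.0499 CPM for the deeper, and this limit covers counting error only. Both pyrimidine nucleotide carriers were expressed, with Slc25a33 at 5.25 and 4.64 TPM and Slc25a36 at 6.08 and 3.49.

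The aspartate and glutamate carriers, which serve the malate-aspartate shuttle and glutamate entry, divided by pair. Slc25a22, a glutamate carrier, measured 40.4 and 29.5 TPM, while its relative Slc25a18 measured 0.430 and 0.730. Of the aspartate-glutamate exchangers, Slc25a12 measured 10.8 and 14.9 TPM and Slc25a13 measured 0.970 and 2.18. Most of the Slc25a12 TPM was again placed on models not annotated as protein-coding. Protein-coding transcripts held 3.34% of its TPM in replicate 1 and 2.88% in replicate 2. Slc25a12-207, an annotated decay target, took 29.8% and 91.2%, and the processed transcript Slc25a12-205 took 57.8% and 0%. All 2392 bases of Slc25a12-207 lie in exons of the coding transcript Slc25a12-206, and they cover 94.3% of its coding part. Slc25a22-204, also annotated as a decay target, led Slc25a22 with 44.3% and 46.4%. It shares 2549 bases with the exons of the coding transcript Slc25a22-201, holds 19 outside them and covers 100% of the coding part. These decay models thus differ little in sequence from the coding transcripts of their genes.

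Of the di- and tricarboxylate carriers, 4 of 4 were expressed and 3 of 4 were high. Slc25a1, which exports the citrate used for fatty acid and sterol synthesis, measured 471 TPM in replicate 1 and 229 in replicate 2 (350 ± 171, SD, n = 2). Slc25a11, the oxoglutarate-malate carrier, measured 233 and 203 TPM (218 ± 21.8, SD, n = 2). Slc25a10, which exchanges dicarboxylates for phosphate, measured 83.6 and 57.4 TPM (70.5 ± 18.6, SD, n = 2). Slc25a21, the oxodicarboxylate carrier of lysine and tryptophan breakdown, measured 46.7 and 37.8 TPM, just short of the limit for a high level. All 4 were lower in replicate 2 in TPM, and none of the 4 met the criterion for a difference between the libraries by counts.

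Slc25a1 and Slc25a11 both owed much of their TPM to short transcripts with retained introns. For Slc25a1 (chromosome 16, 17925223 to 17928219, minus strand), Slc25a1-205 of 460 bases measured 187 TPM in replicate 1 and 23.2 in replicate 2. The coding transcript Slc25a1-201 measured 171 and 153 TPM. In TPM the gene was 2.06 times higher in replicate 1, but in scaled counts only 1.29 times. For Slc25a11 (chromosome 11, 70644196 to 70647479, minus strand), Slc25a11-205 of 531 bases took 80.6% and 83.0% of TPM, and 53.6% and 57.1% of the gene's counts. Of its bases, 446 lie in the exons of the coding transcript Slc25a11-201 and 85 outside them. The 245 bases in which Slc25a11 overlaps Rnf167 on the other strand are a further limit, since whether counting used strand is not given in the sources used here. Slc25a25, Slc25a26 and Slc25a35 overlap Naif1, Lrig1 and Rangrf on the other strand in the same way. So does the low member Slc25a18, with 16 and 48 counts, overlap Atp6v1e1, with 960 and 3720 counts. The genes opposite Slc25a21, Slc25a23 and Slc25a46 had 28 counts at most in a library. The Slc25a11 boundary is printed because most of the gene's TPM lies on the model that crosses it; capitals mark bases beyond the coding exon (chr11:70646016-70646135, minus strand).
Slc25a11-205: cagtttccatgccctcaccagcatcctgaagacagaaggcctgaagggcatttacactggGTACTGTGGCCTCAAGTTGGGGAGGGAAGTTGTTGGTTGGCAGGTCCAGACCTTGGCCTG

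Carriers of carnitine, ornithine and basic amino acids were low. Slc25a15, the ornithine carrier of the urea cycle, measured 7.13 and 4.66 TPM, and its relative Slc25a2 measured 0.190 and 0.210. Slc25a20, which brings acylcarnitines in for fatty acid oxidation, measured 1.16 and 2.75 TPM. Slc25a29, a carrier of basic amino acids, measured 1.60 and 1.52. The branched-chain amino acid carrier Slc25a44 measured 7.06 and 19.4 TPM, higher in replicate 2.

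The cofactor carriers described here were expressed, and none was high. Slc25a51, which imports NAD, measured 27.6 TPM in replicate 1 and 42.0 in replicate 2. Slc25a16, a relative of the coenzyme A carriers, measured 23.3 and 10.1 TPM. Slc25a42, the coenzyme A carrier, measured 7.97 and 11.3 TPM, of which protein-coding transcripts held 16.7% and 46.3%. Slc25a32, linked to folate and flavin transport, measured 2.75 and 2.45, and the S-adenosylmethionine carrier Slc25a26 measured 1.39 and 2.40. A short transcript, Slc25a51-205 of 718 bases, measured 14.7 TPM in replicate 2 and 0 in replicate 1. In scaled counts Slc25a51 was only 1.07 times higher in replicate 2.

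The glutathione carriers were far apart. Slc25a39 (chromosome 11, 102402985 to 102407946, minus strand), which brings glutathione into the matrix, measured 112 TPM in replicate 1 and 277 in replicate 2 (194 ± 116, SD, n = 2). Its relative Slc25a40 measured 1.20 and 1.71. The full-length Slc25a39-201 measured 32.9 and 140 TPM and took 29.4% and 50.7% of the gene. Slc25a39-205, a model of 728 bases, measured 64.6 and 51.5 TPM. The excess in replicate 2 thus lay in Slc25a39-201 and in the short models Slc25a39-212 and Slc25a39-206, which were at 0 in replicate 1.

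Of the uncoupling protein-like members, Slc25a30 measured 3.48 and 7.57 TPM, Slc25a14 had 0 and 3 counts, and Slc25a27 had 0 in both. Slc25a17, a peroxisomal carrier, measured 2.03 and 1.30 TPM, and Slc25a46, an outer membrane protein tied to mitochondrial shape, measured 11.4 and 9.14. Among the 8 remaining members, Slc25a47 measured 1.63 and 2.79 TPM. Slc25a35 measured 0.970 and 1.80, Slc25a53 0.310 and 0.980, and Slc25a45 0.0200 and 0.120. Slc25a34, Slc25a43, Slc25a48 and Slc25a54 had 0 counts in both libraries.

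At 4 places members lie within 100000 bases of each other. Slc25a43 and Slc25a5 are 18448 bases apart on chromosome X, the first at 0 counts and the second at 18.9 and 17.0 TPM. Slc25a41 and Slc25a23 are 2056 bases apart on chromosome 17, the first at 0 counts and the second at 10.1 and 8.05 TPM. Slc25a54 and Slc25a24 on chromosome 3 were both at 0. Slc25a29 and Slc25a47, on opposite strands of chromosome 12 with 162 bases between them, were both low, at 1.60 and 1.52 TPM and at 1.63 and 2.79 TPM. Neighbouring members thus had unlike levels at 2 of the 4 places.

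Over the 22 members with a mean of at least 5 TPM, the leading transcript was not annotated as protein-coding in both libraries for 5 (Slc25a4, Slc25a11, Slc25a12, Slc25a22 and Slc25a37). Over all genes of that level the share was 18.0%. Protein-coding transcripts held less than 50% of the TPM in both libraries for 6 of the 22, with 18.4% over all genes, the added member being Slc25a42. The leading transcript differed between the libraries for 6 of 22 (Slc25a1, Slc25a3, Slc25a12, Slc25a23, Slc25a39 and Slc25a42), with 17.7% over all genes. In 8 of the 22, 2 or more transcripts each held at least 10% of the TPM in both libraries, with 35.9% over all genes. These shares of small numbers are a description, and the split of a gene among its transcripts is the authors' model estimate from fragments that can match several of them. Slc25a5, Slc25a10, Slc25a21 and Slc25a28, by contrast, had at least 97.3% of their TPM on protein-coding transcripts in each library. They were not alone in this: Slc25a15, Slc25a16, Slc25a23, Slc25a30, Slc25a44, Slc25a46 and Slc25a51 were among the others that did.

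**Figure D2:**
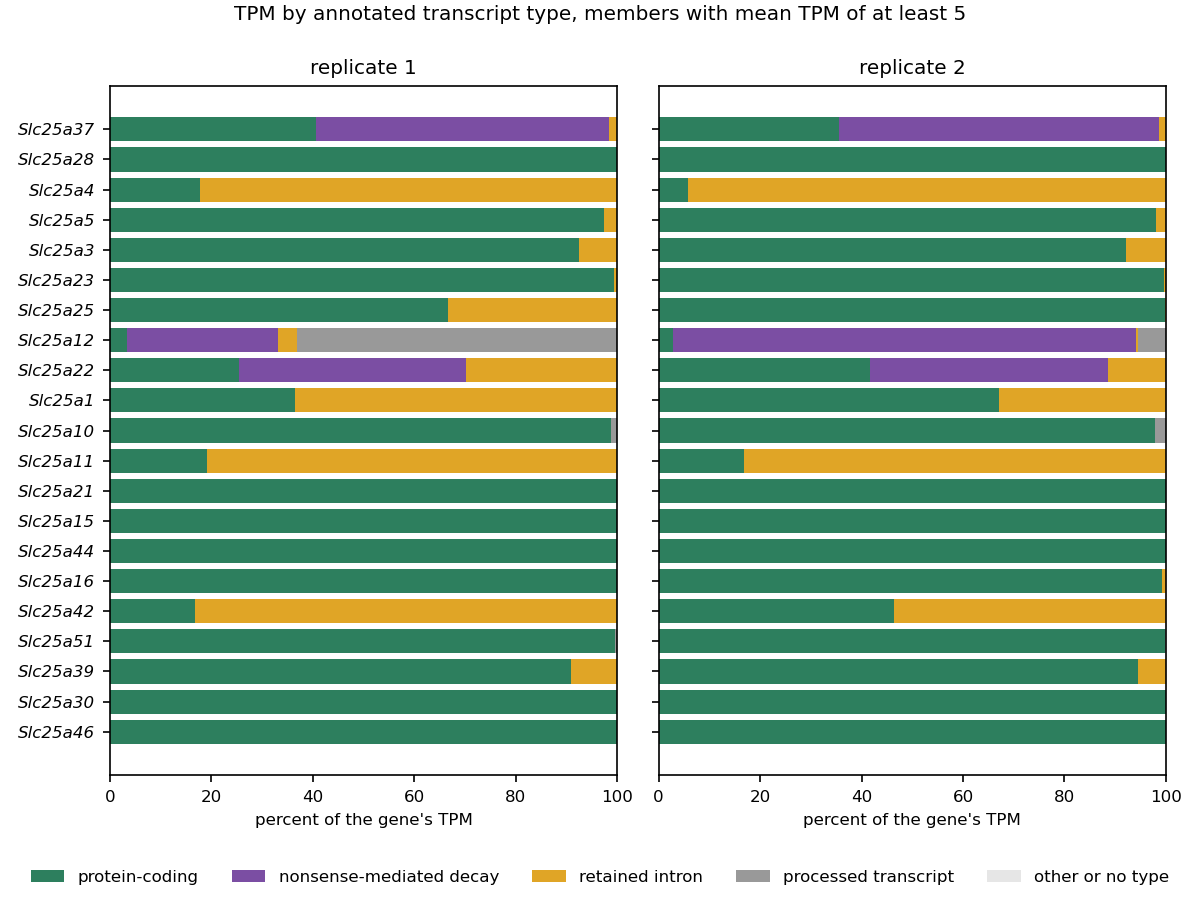
Percent of each gene's TPM by annotated transcript type, replicate 1 left and replicate 2 right, for 21 members with mean TPM of at least 5. Retained introns fill most of the Slc25a4 and Slc25a11 bars in both libraries, decay targets most of Slc25a37, and Slc25a12 changes type between the libraries.

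Related carriers were compared within each library as the log2 ratio of TPM + 0.1, and a ratio was taken as larger than the spread if its sign matched in the 2 libraries and its mean exceeded 2 times their range. This held for 11 of 17 pairs. Slc25a39 exceeded Slc25a40 by 6.84 ± 0.59 (SD, n = 2), and Slc25a22 exceeded Slc25a18 by 5.70 ± 0.78. Slc25a15 exceeded Slc25a2 by 4.29 ± 0.49, and Slc25a1 exceeded Slc25a10 by 2.24 ± 0.35. With protein-coding transcripts alone, the last of these fell to 1.25 and Slc25a22 over Slc25a18 to 4.10, both still larger than the spread. By the same count, Slc25a39 over Slc25a40 was 6.73 and Slc25a15 over Slc25a2 stayed at 4.29. In CPM, Slc25a1 over Slc25a10 was 1.26. The mitoferrin ratio narrowed to 0.55 when only protein-coding transcripts were counted, in the same direction and still larger than the spread. Most of the protein-coding TPM of Slc25a37 lay on the 342-base model Slc25a37-202, at 56.6 and 33.7 TPM in replicates 1 and 2. The full-length Slc25a37-201 measured 6.04 and 17.7 TPM, below Slc25a28 at 42.4 and 35.6.

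Some of these orders depended on which transcripts were counted. Slc25a13 stood below Slc25a12 by -3.03 ± 0.44 (SD, n = 2), but above it by 1.66 with protein-coding transcripts alone, a value no longer larger than the spread. Slc25a10 stood below Slc25a11 by -1.65 ± 0.24, but above it by 0.80 with protein-coding transcripts alone, and by 0.08 in CPM, which is not divided by length. Slc25a23 stood below Slc25a25 by -0.79 ± 0.05, which became -0.50 with protein-coding transcripts alone and no longer met the criterion.

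Where a gene of a pair had almost no counts, the ratio was taken from counts. Slc25a25, with 1243 and 2323 counts, was at least 345-fold higher per effective length than Slc25a24, which had 0, with 3 counts per library set as the floor of Slc25a24; the bound is that of replicate 1, the lower of the 2 libraries. Summed over both libraries, Slc25a30 had 803 counts and Slc25a14 had 3, a ratio of 268 in counts not divided by length (95% counting interval 91.3 to 1301). Slc25a5 had 1616 counts and Slc25a31 had 2, with a mean log2 ratio of 7.25 that moved from 4.22 to 9.65 with the pseudocount. The pairs not larger than the spread included Slc25a5 with Slc25a4, Slc25a36 with Slc25a33, Slc25a20 with Slc25a29, Slc25a42 with Slc25a16, and Slc25a32 with Slc25a26.

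**Figure D3:**
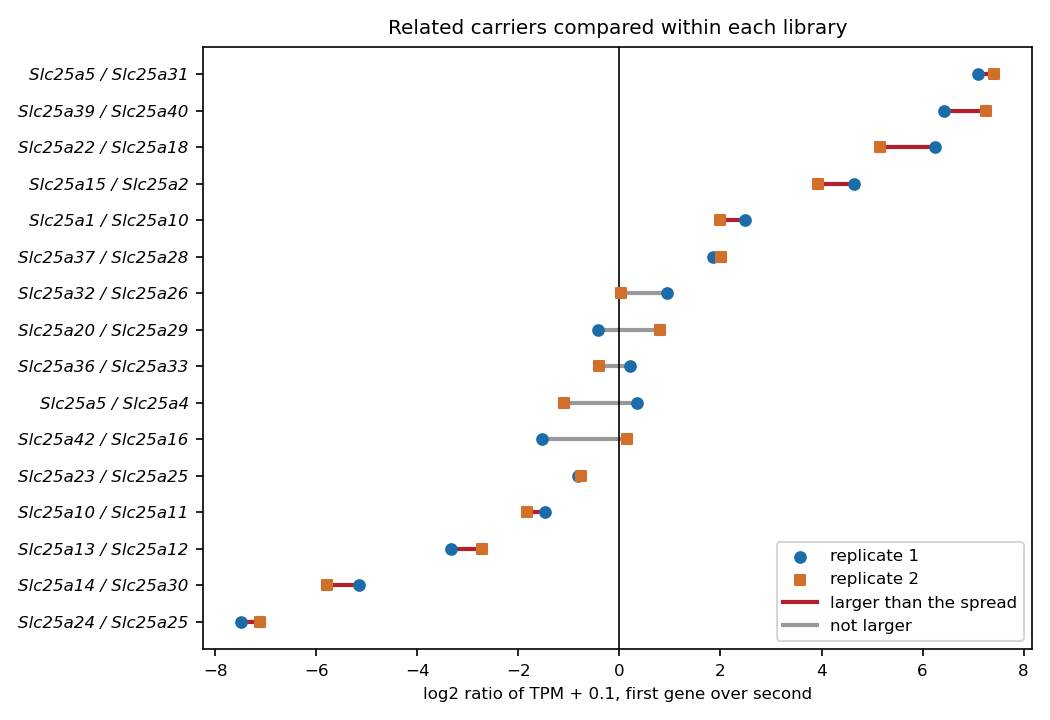
log2 ratio of TPM + 0.1 for 16 pairs in replicate 1 (circles) and replicate 2 (squares), first-named gene over second; red lines join pairs larger than the spread and grey lines the rest. The 5 grey pairs lie between -1.53 and 0.94, and Slc25a39 over Slc25a40 lies at 6.43 and 7.26.

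The libraries themselves were compared by counts scaled to library size, with an exact two-sided binomial test per gene and Benjamini-Hochberg adjustment over the 11230 genes tested; a difference was called when the fold reached 1.5 with an adjusted p under 0.05. This compares 2 libraries, not conditions. Of 37 members tested, 14 were called, against 41.4% of all genes tested. Of these, 12 were higher in replicate 2 and 2 in replicate 1, while over all genes 24.3% were higher in replicate 2 and 17.1% in replicate 1. Replicate 2 against replicate 1 gave a median log2 ratio of 0.23 over the 37 members and 0.05 over all genes tested in scaled counts, and -0.10 and -0.08 in TPM. Erythroid markers differed in both directions by the same test: Hbb-bs was 3.96 times higher in replicate 2, Hba-a2 was at 1.02 times, and Klf1 and Tal1 were 1.75 and 1.59 times higher in replicate 1. Their part in the members' differences was not tested.

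The members higher in replicate 2 ranged from 1.54 to 3.07 times, and 7 of the 12 had a mean under 5 TPM. Slc25a39 measured 88.2 and 271 scaled CPM, 3.07 times higher in replicate 2 (95% counting interval 2.96 to 3.19), and 2.47 times in TPM. Slc25a44 measured 19.5 and 58.2, 2.98 times higher (2.75 to 3.23, adjusted p = 1.84e-196). Slc25a4 measured 15.1 and 37.2, 2.47 times higher (2.25 to 2.71, adjusted p = 1.91e-95). Its excess lay on the retained-intron model Slc25a4-202, at 12.22 and 34.35 TPM in replicates 1 and 2. The coding transcript Slc25a4-201 was not higher in replicate 2, at 2.65 and 2.08 TPM. Slc25a12 measured 12.2 and 29.6, 2.42 times higher (adjusted p = 5.69e-74), but only 1.39 times in TPM, where its effective length was 1397 bases in replicate 1 and 2251 in replicate 2. The other 8 were Slc25a13, Slc25a20, Slc25a26, Slc25a30, Slc25a35, Slc25a40, Slc25a47 and Slc25a53. Those 8 had lower counts, from 17 to 638 per library, and wider intervals, such as 1.74 to 5.32 for Slc25a53. Protein-coding transcripts held 0% and 11.2% of the Slc25a53 TPM in replicates 1 and 2, and 9.28% and 9.44% of the Slc25a35 TPM. Of the Slc25a53 counts, 94.1% lay on the retained-intron model Slc25a53-213 in replicate 1. In replicate 2, 77.0% lay on the processed transcript Slc25a53-211.

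Both members higher in replicate 1 were close to the fold limit. Slc25a3 measured 620 and 409 scaled CPM, 1.52 times higher in replicate 1 (1.49 to 1.54). With libraries scaled by their totals alone its ratio of replicate 2 to replicate 1 was 0.695, and it was no longer called. Slc25a36 had 934 and 938 expected counts in spite of the greater depth of replicate 2, 1.64 times higher in replicate 1 when scaled (1.5 to 1.80, adjusted p = 4.79e-26). A further 16 members had an adjusted p under 0.05 with a fold under 1.5, Slc25a37 among them at 1.27 times higher in replicate 2 by counts and 1.07 times higher in replicate 1 by TPM. The direction differed between scaled counts and TPM for 4 of the 37 members, Slc25a23, Slc25a25 and Slc25a37 among them, and 0 of these 4 were called.

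**Figure D4:**
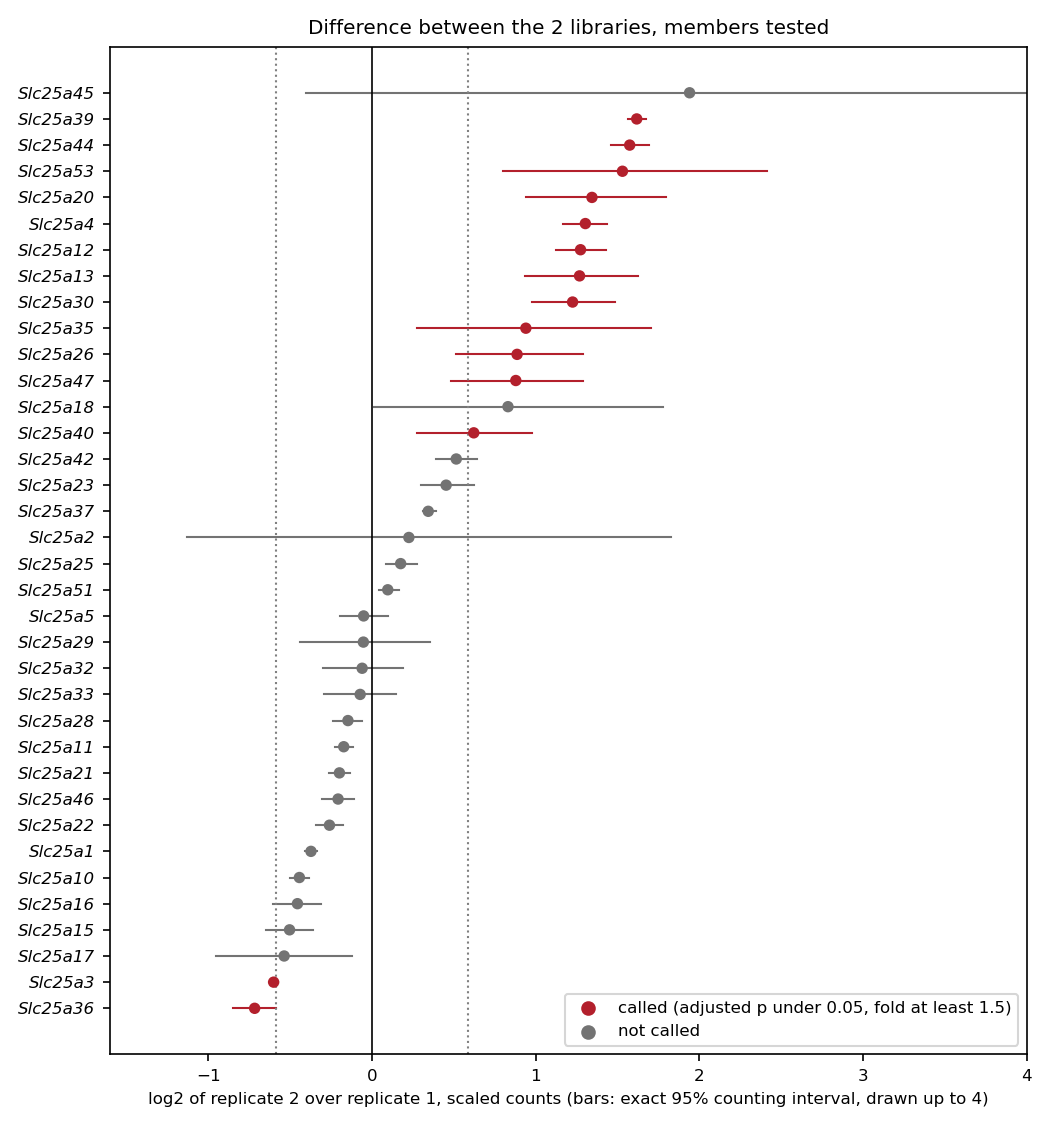
log2 ratio of replicate 2 to replicate 1 in scaled counts for 36 of the members tested, with exact 95% counting intervals as bars; red marks the 14 called members and dotted lines a fold of 1.5. Slc25a39 and Slc25a44 are the highest called members, near 3 times, and Slc25a3 and Slc25a36 the only red points on the left.

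By the deposited intervals of TPM, the libraries did not overlap for 24 of the 31 expressed members, 11 of them higher in replicate 2, where 75.7% of all expressed genes did not overlap. Those intervals cover the estimation within a library and not the spread between cultures.

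Genes of the same protein family that carry other names were led by Ucp2, and the 5 of them summed to 1892 and 2015 TPM. Ucp2, an uncoupling protein of blood and other cells, measured 1670 TPM in replicate 1 and 1859 in replicate 2, of which protein-coding transcripts held 42.6% and 34.4%. Mtch1, an outer membrane relative, measured 215 and 143 TPM, and Mtch2 measured 7.31 and 13.3, 2.07 times higher in replicate 2 by counts and called. Ucp1, the uncoupling protein of brown fat, had 0 counts, and Ucp3, its relative in muscle, had 1 and 4. In TPM of all transcripts, Ucp2 alone thus exceeded the sum of the 46 members in replicate 2, and in replicate 1 it did not. In CPM Ucp2 measured 826 and 913, below the members' mean sum of 1996 CPM. Counting protein-coding transcripts alone, Ucp2 measured 712 and 640 TPM, below the members' mean sum of 1144 TPM.

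The import route that inserts carriers was expressed throughout, with 13 of 13 genes at 1 TPM or more. The outer membrane receptor Tomm70a measured 111 and 63.9 TPM, the pore Tomm40 438 and 378, and Tomm22 and Tomm20 154 and 156 and 127 and 90.7. The small chaperones of the space between the membranes were uneven. Timm13 measured 161 and 150 TPM and Timm10b 179 and 381, of which protein-coding transcripts held 13.0% and 31.8%, while Timm9 measured 2.24 and 15.3 and Timm10 1.33 and 14.2. Timm8b measured 13.7 and 26.1, and Timm8a1 6.94 and 8.66. At the inner membrane, the pore Timm22 measured 25.4 and 25.6, Timm29 23.0 and 14.2, and Agk 3.08 and 4.20. By counts, 5 of the 13 were called (41.4% of all genes tested), 4 of them higher in replicate 2 (24.3%), namely Timm9 (7.10 times), Timm10 (11.1 times), Timm10b (2.09 times) and Timm8b (2.02 times). Tomm70a was called higher in replicate 1 (1.61 times), where 17.1% of all genes tested were.

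The outer membrane channels, through which carrier substrates pass first, were expressed as well. Vdac2 measured 321 and 295 TPM, Vdac1 52.2 and 65.0, and Vdac3 11.1 and 7.63. The pyruvate carrier, which belongs to another protein family, had unequal subunits. Mpc1 measured 10.1 and 32.6 TPM and was called 3.61 times higher in replicate 2. Mpc2 measured 85.2 and 89.0 TPM, nearly level, but was called 1.80 times higher in replicate 1 by scaled counts. Protein-coding transcripts held 34.4% of the Mpc2 TPM in replicate 1 and 92.7% in replicate 2, and 15.0% and 81.9% of its counts. In TPM of these transcripts alone, Mpc2 was instead higher in replicate 2, at 29.3 and 82.5 in replicates 1 and 2.

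Sequence features that the rule did not use overlapped between the high members and the rest, and their difference was not tested. The GC content of the high members' longest coding transcripts had a median of 56.7% (48.7% to 60.6%), against 49.9% (39.7% to 60.9%) for the other 25 expressed members, and their median transcript length was 1698 bases (1341 to 4174) against 2811 (1240 to 6351). Across the 31 expressed members, GC content and mean TPM had a Spearman rho of 0.35, and over 8051 expressed nuclear protein-coding genes it was 0.34. These are descriptions across genes, which share both libraries and are not independent replicates.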

How the data were processed

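PolyA RNA of 2 libraries of 1 group was analysed. The annotation of the deposited tables is GENCODE M4 on mm10, per the file headers and the submitters' processing notes; the sources used here do not give the aligner, quantifier settings or use of strand. Per the file headers, the deposited expected counts are estimated fragments per gene or transcript, divided among features that share reads. The deposited TPM divides these by effective length and scales the sum to 1000000, so reads placed on a short transcript raise it; the deposited FPKM divides by length and by fragments. Isoform percent, as the authors deposited it, is the share of a gene's TPM on 1 transcript. The 95% TPM bounds that the authors deposited, treated as a signal, were used as given.

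Symbols, types and coordinates came by identifier from GENCODE M21 on the same build for 42462 of 43346 Ensembl gene rows. The 26345 rows with no gene name held 2 and 0 counts and were left out. A sequence was found for 201 of 204 member transcripts, of which 182 had the deposited length. Sequences are those of the GENCODE M21 transcripts. Protein features were planned and are not analysed here.

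Expected counts were rounded to whole numbers for the test and scaled by TMM (edgeR 4.0.16, R 4.3.3); DESeq2 1.42.0 size factors were an alternative. Genes with at least 10 counts in sum entered the exact two-sided binomial test (SciPy 1.17.1, Python 3.11.15), with 0.5 counts added for folds and exact Clopper-Pearson 95% intervals that cover counting error only. The test was checked on simulated counts that varied by counting error alone. That check covers how the test is computed and not the spread between cultures. With 1 group, no test between conditions was possible. All members enter the counts. By the naming rule, expressed members, members called between the libraries, both genes of each pair and every gene of the other lists that is no lineage marker are named with values; some genes it picks are not reported here. Members and lists were chosen with earlier results of these data known. Alternatives changed the unit, thresholds, scaling, count and fold minimum, pseudocount, transcripts counted and the library left out.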

Additional observations from a re-analysis of the deposited data

How the results depend on the processing

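Of 52 recalculated summary values, 43 did not move: counts stayed within 1.5 times of the first count, and the summed level stayed within the SD between the libraries. With 2 libraries, the sum of 1 library always lies within that SD of the mean. Leaving out a library thus could not move the summed level by this criterion. The high members numbered 10 at a limit of 25 TPM, where the limit of 50 gave 6. The mean summed level of the family was 1718 TPM, and 1144 with protein-coding transcripts alone; in other units it was 1996 CPM and 1449 FPKM. Leaving out 1 library gave a sum of 1543 to 1892 TPM, 31 to 33 expressed, 6 high and 9 to 10 not detected members, and 5 to 7 members led by a transcript not annotated as protein-coding. With no fold minimum 30 of 37 members were called between the libraries (73.5% of all genes), 12 of them higher in replicate 1 (34.4%); with a minimum of 2 it was 8 (21.8%), with 0 higher in replicate 1 (7.23%). With library totals alone 15 were called (41.5%), 14 higher in replicate 2 (26.8%) and 1 in replicate 1 (14.6%), where Slc25a3 was no longer called. Of the pairs larger than the spread, 3 values reversed. Slc25a13 over Slc25a12 became 1.66 with protein-coding transcripts alone, and Slc25a10 over Slc25a11 became 0.80 with these and 0.08 in CPM. Pairs not larger than the spread also changed sign. Slc25a5 over Slc25a4 went from -0.37 to 2.85 with protein-coding transcripts alone. In CPM, Slc25a36 over Slc25a33 went from -0.10 to 1.41, and Slc25a42 over Slc25a16 from -0.69 to 0.57. The first of these 2 and Slc25a5 over Slc25a4 then became larger than the spread. The cause of these changes was not tested. The alternatives for leading transcripts were chosen after seeing the data. No paired analysis was possible because there is only 1 group. Leaving out a library leaves no comparison between the libraries, so none was run. With 2 libraries, depth limits the members under 100 counts, and a count of 0 does not show that a gene is silent.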
